A study of Homo sapiens with 6 samples.

Results

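MOAP1, ITPK1, REC8, ZNF492, ZNF849P, ZNF560, NOMO1 and FBL are 8 of the 16199 genes in a table of raw RNA-seq counts from human embryonic stem cells. They were chosen by symbol because their counts fell near 0 or jumped more than 5-fold in single genotypes or single libraries, so their values chose them and are given as a description, with no test. All 8 symbols were found in the table. The line was H1, and each of 3 genotypes had a pair of libraries, numbered 1 and 2: wild type, hemizygous for DICER1 S1344L, and homozygous for DICER1 S1344L, both edited genotypes having been made with CRISPR-Cas9. The labels name no other treatment, and they do not say what the other DICER1 allele of the hemizygous cells carries, nor whether the 2 libraries of a genotype came from separate clones or cultures.

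The 8 genes belong to no common pathway. DICER1 cuts microRNA precursors into mature microRNAs, and S1344L is a change at a site recurrently mutated in cancer. MOAP1 is a partner of the cell death protein BAX, ITPK1 an inositol phosphate kinase, REC8 the meiotic kleisin subunit of cohesin, NOMO1 a subunit of a membrane protein translocon, and FBL (fibrillarin) the methyltransferase of box C/D small nucleolar ribonucleoproteins. ZNF492 and ZNF560 are C2H2 zinc-finger genes of chromosome 19, a family whose KRAB members recruit the corepressor TRIM28 to silence transposable elements, and ZNF849P is a zinc-finger pseudogene.

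Listed counts summed to between 38164848 and 52924532 per library. Levels are in CPM, the usual per-library scaling of counts, here with TMM factors, a method that makes libraries of different composition comparable. All 10 stem cell markers examined, among them POU5F1, NANOG and SOX2, were measured, and their summed level lay between 10028 and 11946 CPM in every library. Of markers of other cell types, none of 3 for endoderm, none of 4 for trophoblast and amnion and none of 1 for blood was in the table. FABP7 was the only one of 3 for neural ectoderm (2.99 to 8.15 CPM), and DAZL was the only one of 4 for germ cells and meiosis (2.79 to 6.79 CPM). For mesendoderm and mesoderm 2 of 4 were measured, MIXL1 and MESP1, with a summed level of 1.87 to 3.44 CPM. Of 5 fibroblast markers, COL1A1, COL1A2 and THY1 were measured, with a summed level of 775.3 to 844.8 CPM in wild-type, 697.7 to 808.1 in hemizygous and 621.9 to 667.2 in homozygous libraries. DICER1 itself was at 169.4 and 126.1 CPM in the wild-type pair, 118.4 and 96.4 in the hemizygous pair, and 128.9 and 117.9 in the homozygous pair.

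Few genes had so wide a range between libraries. With 0.1 CPM added to every value, 117 of 16199 genes (0.722%) had a highest library at least 5-fold above the lowest, and all 8 listed genes were among them, as their choice requires. REC8 ranked 4, ITPK1 7, ZNF560 9, NOMO1 16, FBL 26, MOAP1 39, ZNF492 80 and ZNF849P 85 of all genes by this range. The genes nearest to the 5-fold limit were SPCS2P4 at 5.02 and PDE6B-AS1 at 5.03 inside it and IQCN at 4.998 and OOEP at 4.97 outside it. The table holds only genes above 0.5 CPM in at least 3 libraries, so a gene on in 1 genotype and silent in the other 4 libraries is not analysed here.

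**Figure D1:**
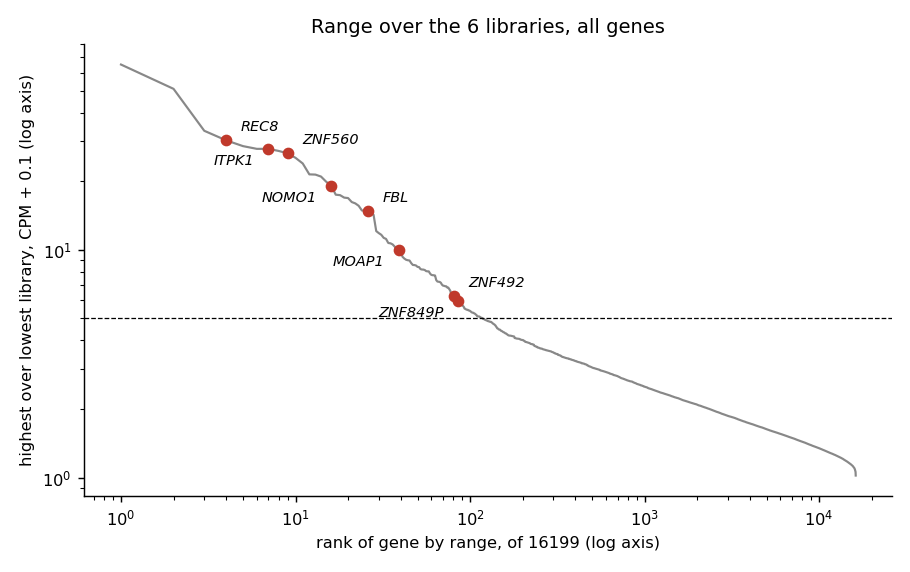
Genes ordered by the ratio of their highest to their lowest library (vertical log axis, CPM with 0.1 added) against rank among 16199 genes (horizontal log axis), with the 8 listed genes as red points and the 5-fold limit dashed. REC8 has the widest range of the listed genes and ZNF849P the narrowest, and 117 genes lie at or above the limit.

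Replicates within 2-fold of each other in all 3 genotypes were rare among the genes with a wide range. Of the 117 genes, on levels with 0.1 CPM added, 8 had such agreement in 3 genotypes, 29 in 2, 58 in 1 and 22 in none. MOAP1, ZNF492 and ZNF849P were in the first class, ITPK1, ZNF560 and FBL in the second, and REC8 and NOMO1 in the third. Over all genes the 2 libraries were more than 2-fold apart in 4.64% of genes for wild type, 5.28% for the hemizygous and 1.7% for the homozygous genotype. A library far from its replicate itself widens the range, so low agreement among the 117 genes is partly built in by their choice. The share of all genes that agree in all 3 genotypes is not given.

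**Figure D2:**
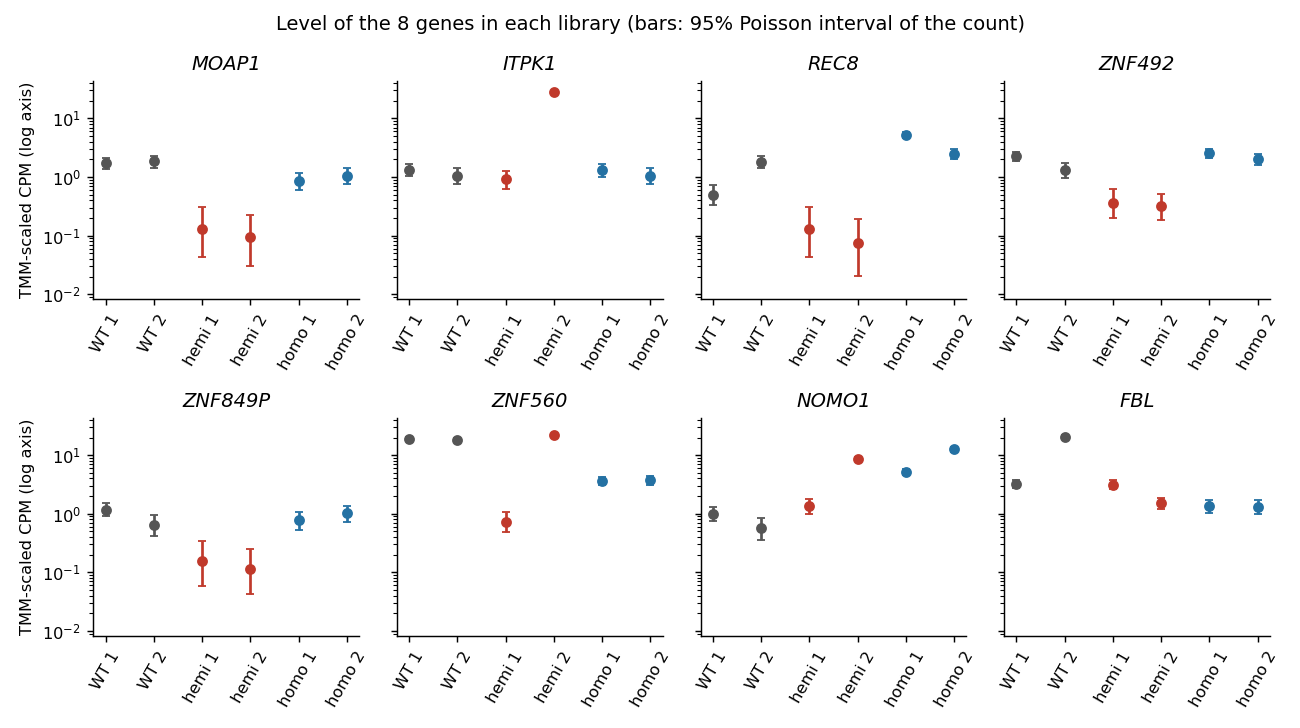
Level of each listed gene in the 6 libraries (vertical log axis, TMM-scaled CPM), with wild type in grey, hemizygous in red and homozygous in blue, 1 point per library and bars for the 95% Poisson interval of the count (counting error only). MOAP1, REC8, ZNF492 and ZNF849P are lowest in both hemizygous libraries, ITPK1, ZNF560 and FBL each have 1 library far from its replicate, and NOMO1 is high in hemizygous 2 and both homozygous libraries.

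Of the 8 genes, 4, MOAP1, REC8, ZNF492 and ZNF849P, were low in both hemizygous libraries. MOAP1 had, in replicate order, 89 and 72 counts in the wild-type pair, 5 and 5 in the hemizygous pair and 39 and 42 in the homozygous pair. The 3 genotypes did not overlap, but the share of all genes without overlap is not given, here or for REC8 below. The replicates of each genotype agreed: MOAP1 was at 1.78 ± 0.0891 CPM over the wild-type pair, 0.113 ± 0.0251 over the hemizygous pair and 0.947 ± 0.124 over the homozygous pair (SD, n = 2). Its log2 fold change was -4.01 ± 0.38 (SE, edgeR) in hemizygous and -0.91 ± 0.30 in homozygous cells against wild type. A count of 5 carries a 95% Poisson interval of 1.62 to 11.7, so the hemizygous counts stayed below those of every other library at this depth. In bulk RNA, fewer cells with the transcript and less transcript per cell cannot be told apart, here and for each gene below.

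REC8 had 26 and 71 counts in the wild-type pair, 5 and 4 in the hemizygous pair and 237 and 101 in the homozygous pair. It was near 0 in both hemizygous libraries, while its wild-type libraries differed 3.62-fold and its homozygous libraries 2.10-fold. The levels were 1.16 ± 0.930 CPM over the wild-type pair, 0.103 ± 0.0385 over the hemizygous pair and 3.85 ± 1.93 over the homozygous pair (SD, n = 2), and the genotypes did not overlap. The log2 fold change of homozygous against hemizygous cells, 5.27 ± 0.84 (SE, edgeR), was larger than that of any other gene in the table. REC8 replicates disagreed where the gene was on and agreed where it was near 0: a difference as large as that of the wild-type libraries was seen in 0.759% of all genes. Leaving out wild type 1 gave a log2 fold change of 1.09 in homozygous against wild-type cells, and leaving out wild type 2 gave 2.95.

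ZNF492 had 118 and 51 counts in the wild-type pair, 14 and 17 in the hemizygous pair and 116 and 81 in the homozygous pair. Its pseudogene neighbour ZNF849P had 61 and 25, 6 and 6, and 35 and 41 in the same order. Both were low in the hemizygous pair alone, and for both the wild-type and homozygous libraries overlapped. ZNF492 was at 1.79 ± 0.686 CPM over the wild-type pair, 0.344 ± 0.0300 over the hemizygous pair and 2.27 ± 0.397 over the homozygous pair, and ZNF849P at 0.908 ± 0.379, 0.135 ± 0.0301 and 0.890 ± 0.168 (SD, n = 2). The log2 fold change in hemizygous against wild-type cells was -2.39 ± 0.40 (SE, edgeR) for ZNF492 and -2.79 ± 0.50 for ZNF849P. Leaving out any 1 library moved the first between -2.72 and -1.92 and the second between -3.13 and -2.26.

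These genes lie in 3 places of the genome (GRCh38, GENCODE release 29). MOAP1 is at chr14:93182196-93184928 on the minus strand, REC8 at chr14:24171853-24180257 on the plus strand, ZNF492 at chr19:22634324-22667670 and ZNF849P at chr19:22685167-22686732, both on the plus strand. ZNF492 and ZNF849P are 17.5 kb apart with no measured gene between them. They also share sequence: 18.0% of the 50-base words in the ZNF849P transcript occur in ZNF492 transcripts, so some reads of one may have been listed under the other. ZNF98, the zinc-finger gene that shares 29.4% of the words of ZNF492, is not analysed here. The antisense gene AC024563.1 overlaps both on the other strand and is likewise not analysed here, nor is IPO4, which overlaps REC8 on the other strand. The labels' protocols do not say that the libraries keep strand, so reads of such a pair could not be told apart.

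Among the measured neighbours of these genes, those with differences of similar size were listed genes themselves: ITPK1 beside MOAP1, and ZNF492 and ZNF849P beside each other. The nearest other measured zinc-finger genes around that pair had log2 fold changes in hemizygous against wild-type cells of 0.06 for ZNF43 before it and 0.20 for ZNF730 after it. Of 248 measured ZNF genes of chromosome 19, 2 were at or below -1 in that comparison, ZNF492 and ZNF849P themselves, none was at or above 1, and the median was 0.05 against -0.00 for all genes. Of the 36 nearest measured neighbours of the 8 genes that are not listed genes themselves, none had an absolute log2 fold change of at least 1 in hemizygous (0.438% of all genes) or homozygous cells (1.25%) against wild type, and 2 did in homozygous against hemizygous cells (0.883% of all genes), both near REC8: DHRS2, a dehydrogenase gene, at -1.06, and PSME2. Around REC8, PSME2, a subunit of the proteasome activator, was the nearest measured gene on 1 side at 24282 bases and had 498 and 360 counts in the wild-type pair, 476 and 748 in the hemizygous pair and 118 and 307 in the homozygous pair. PSME2 was thus lowest in the 2 libraries where REC8 was highest, with a log2 fold change of -1.39 ± 0.45 in homozygous against hemizygous cells (SE; edgeR adjusted p = 0.999). A blocked DESeq2 fit, by replicate number and added after the data were seen, called PSME2 in that comparison. The fit called 24 of all 16199 genes there.

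The sequence at the start of 3 of these genes, which share their low hemizygous level, was read from the RefSeq promoter table (GRCh38.p14), where 6 of the 8 listed genes matched. The 250 bases before the start that this table uses are given 5′ to 3′ on the gene's strand, with CG pairs in capitals because CG is the pair at which cytosines can be methylated. Methylation was not measured in these samples. The windows are chr14:93184898-93185147 on the minus strand for MOAP1, chr14:24171830-24172079 on the plus strand for REC8 and chr19:22634074-22634323 on the plus strand for ZNF492. GENCODE begins MOAP1 and REC8 farther upstream than this table does, so most of the REC8 window and the downstream end of the MOAP1 window lie inside the gene as positioned above.
MOAP1: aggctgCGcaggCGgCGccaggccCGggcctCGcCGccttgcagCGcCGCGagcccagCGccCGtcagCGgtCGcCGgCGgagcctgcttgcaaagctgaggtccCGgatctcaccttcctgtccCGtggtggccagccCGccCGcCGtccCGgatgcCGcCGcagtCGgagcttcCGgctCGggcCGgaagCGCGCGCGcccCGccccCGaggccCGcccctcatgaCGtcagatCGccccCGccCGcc
REC8: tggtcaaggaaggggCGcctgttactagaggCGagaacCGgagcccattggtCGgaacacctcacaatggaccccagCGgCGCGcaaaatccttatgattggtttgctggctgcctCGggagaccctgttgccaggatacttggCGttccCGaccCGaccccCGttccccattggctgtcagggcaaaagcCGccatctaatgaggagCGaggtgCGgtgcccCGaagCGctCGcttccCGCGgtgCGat
ZNF492: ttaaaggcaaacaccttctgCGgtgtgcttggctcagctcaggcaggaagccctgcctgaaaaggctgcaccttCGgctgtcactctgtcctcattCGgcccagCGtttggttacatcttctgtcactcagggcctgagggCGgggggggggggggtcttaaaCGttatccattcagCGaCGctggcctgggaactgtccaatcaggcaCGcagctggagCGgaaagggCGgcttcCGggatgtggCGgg
MOAP1 has 38 CG pairs in this window, REC8 21 and ZNF492 13, against a median of 11 over 35116 promoter windows of the same length. As many pairs as in MOAP1 were found in 3.28% of all windows, as many as in REC8 in 30.2% and as many as in ZNF492 in 46.6%, while 93.9% held at least 1. The sequence TGACGTCA, the same on both strands and containing 1 of the CG pairs, occurs once in MOAP1, in neither REC8 nor ZNF492, and in 1.65% of all windows. CCAAT, searched on both strands, occurs 3 times in REC8, once in ZNF492 and not in MOAP1, and 32.0% of all windows hold it. These motifs were chosen after the sequences had been seen, and the 3 windows share no motif of the 3 searched other than CG.

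ITPK1, ZNF560 and FBL each had a single library far from its replicate, and ZNF560 was also low in both homozygous libraries. ITPK1 had 69 and 41 counts in the wild-type pair, 35 and 1475 in the hemizygous pair and 59 and 42 in the homozygous pair. Hemizygous 2 stood at 28.0 CPM and the other 5 libraries between 0.913 and 1.33 CPM. The hemizygous replicates did not agree: they differed 30.7-fold, and a ratio as large was seen in 0.0123% of all genes. Without hemizygous 2 the range of ITPK1 over the remaining libraries was 1.41-fold, and its log2 fold change in hemizygous against wild-type cells went from 3.60 ± 1.29 (SE, edgeR) to -0.39. ITPK1 was the only gene of 16199 (0.00617%) with hemizygous 2 at least 5-fold above every other library. The assignment of reads to ITPK1 was not tested, so its low counts in the other 5 libraries do not show that the gene was silent there.

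ZNF560 had 995 and 706 counts in the wild-type pair, 28 and 1155 in the hemizygous pair and 167 and 150 in the homozygous pair. It had 2 departures from the wild-type level, 18.6 ± 0.794 CPM (SD, n = 2). The homozygous libraries lay together at 3.69 ± 0.00940 CPM, and hemizygous 1 was at 0.730 CPM while hemizygous 2, at 21.9 CPM, was close to wild type. The homozygous log2 fold change of -2.34 ± 1.16 (SE, edgeR) lay between -2.37 and -2.29 when any 1 library was left out. The hemizygous value, -0.71 ± 1.09, was 0.24 without hemizygous 1 and -4.67 without hemizygous 2, so its direction rested on 1 library. ZNF560 lies at chr19:9466507-9498607 on the minus strand, and no annotated gene overlaps it. The zinc-finger genes beside it, ZNF266 at 30928 bases and ZNF426 at 24616 bases, had 1132 and 1772 counts in hemizygous 1 and 1767 and 1862 in hemizygous 2.

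**Figure D3:**
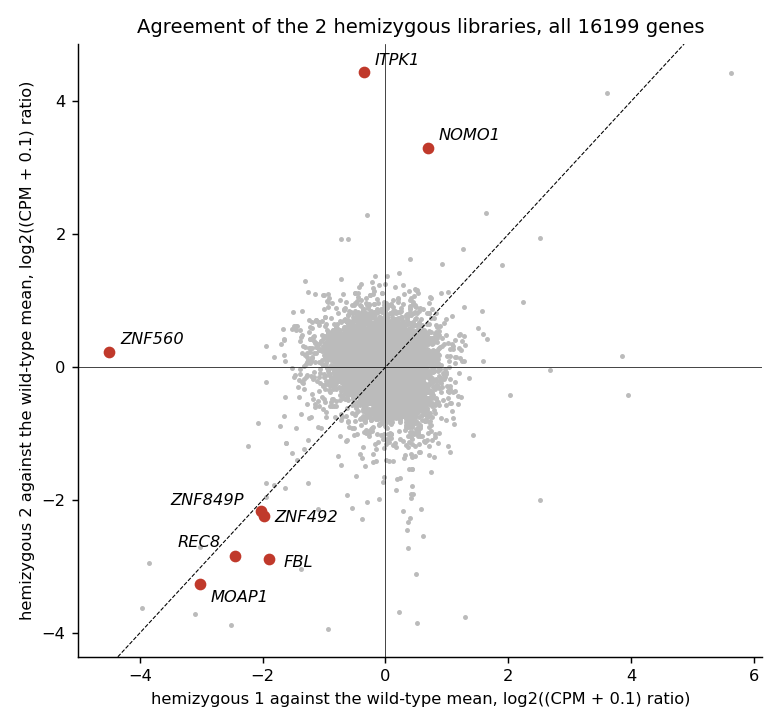
Each of 16199 genes placed by the log2 ratio of hemizygous 1 (horizontal) and hemizygous 2 (vertical) to the wild-type mean, on CPM with 0.1 added, with the listed genes in red and equal ratios dashed. MOAP1, REC8, ZNF492 and ZNF849P lie near the line, ITPK1 and NOMO1 are high on the vertical axis alone, ZNF560 is low on the horizontal axis alone, and FBL is low on both against a wild-type mean that includes wild type 2 at 20.6 CPM.

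ITPK1 and MOAP1 are neighbours on chromosome 14, 65.9 kb apart with no measured gene between them, and MOAP1 lies 1.90 Mb from DICER1, the edited gene. ITPK1, at chr14:92936914-93116320 on the minus strand, was high in hemizygous 2 alone, whereas MOAP1 was equally low in both hemizygous libraries. Within 5 Mb of the start of DICER1, 49 genes were measured. ITPK1 and MOAP1 were the only 2 (4.08%) with an absolute log2 fold change of at least 1 in hemizygous against wild-type cells. Over all genes 0.438% reached that size. ITPK1 and MOAP1 were chosen on these values, so the 4.08% is a description and no support for a difference near DICER1. Without hemizygous 2, ITPK1 was at -0.39. The median of the 49 genes was -0.01. In homozygous against wild-type cells none of the 49 reached 1, against 1.25% of all genes. GOLGA5, the measured gene before ITPK1, had 1751 and 2490 counts in hemizygous 1 and 2, a log2 fold change of -0.01 against wild type, and DDX24, the measured gene after MOAP1, -0.05. The antisense gene ITPK1-AS1, within ITPK1 on the other strand, is not analysed here.

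**Figure D4:**
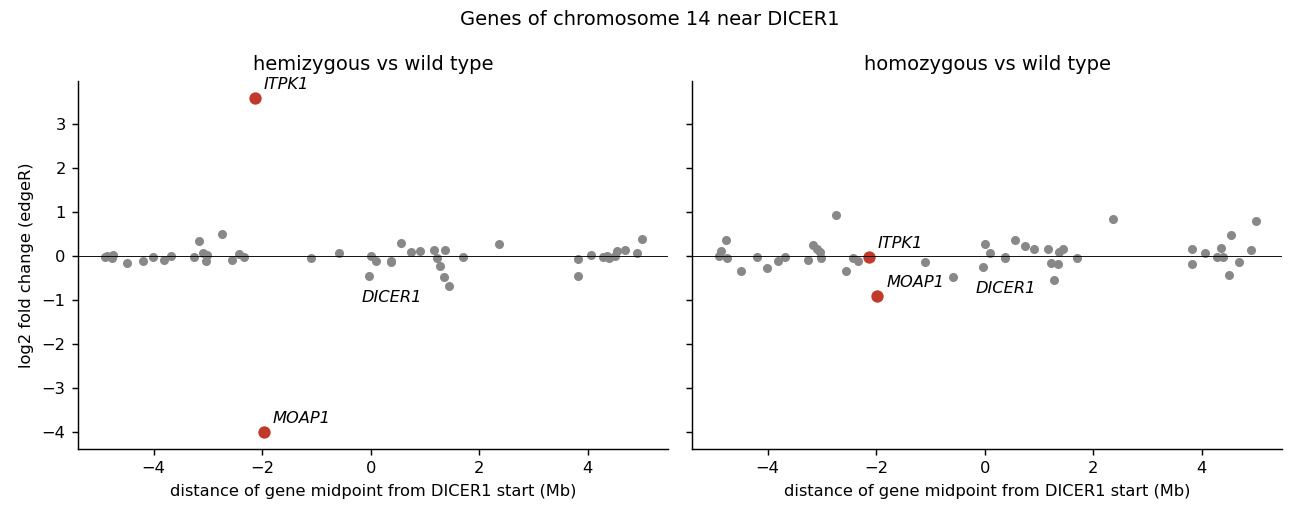
Log2 fold changes (edgeR) of the 49 measured genes within 5 Mb of the start of DICER1 on chromosome 14, against the distance of the gene midpoint in Mb, for hemizygous (left) and homozygous cells (right) against wild type. In the left panel ITPK1 at 3.60 and MOAP1 at -4.01 stand apart from the other genes, and in the right panel no gene passes 1 in either direction.

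FBL had 165 and 807 counts in the wild-type pair, 120 and 80 in the hemizygous pair and 61 and 53 in the homozygous pair. Wild type 2 stood at 20.6 CPM and wild type 1 at 3.18 CPM, close to hemizygous 1 at 3.13 CPM. The homozygous libraries agreed at 1.32 ± 0.0277 CPM (SD, n = 2) and were the lowest. Hemizygous 2, at 1.52 CPM, lay within their 95% Poisson intervals of 1.03 to 1.73 and 0.977 to 1.71 CPM. The hemizygous libraries were 2.06-fold apart, and within 2-fold only with 0.1 CPM added. Leaving out wild type 2 reduced the range of FBL to 2.34-fold and moved its log2 fold change in hemizygous cells from -2.36 ± 0.82 (SE, edgeR) to -0.45 and in homozygous cells from -3.16 ± 0.86 to -1.25. FBL was 1 of 3 genes (0.0185%) at least 5-fold higher in wild type 2 than in every other library. The other 2 were EEF1B2, a translation elongation factor gene, with 2542 counts in wild type 2 and 94 to 243 elsewhere, and CHORDC1, a gene of an HSP90 cochaperone, with 667 and 31 to 72.

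The listed RNA level of FBL had a lower median than that of each measured gene on its partner list. Per kilobase of the longest annotated transcript, the FBL level had a median of 1.66 CPM over the 6 libraries and reached 14.7 CPM in wild type 2. The median was 76.6 CPM per kilobase for NOP56 and 61.1 for NOP58, genes of core proteins of the same particle. All 15 measured partners on the list exceeded the FBL median. The lowest of their medians were 3.42 for FBLL1, 4.92 for ZNHIT6 and 7.66 for NUFIP1, all below FBL in wild type 2. The partners also varied little: their highest library was 1.08 to 1.45 times the lowest, against 15.8 times for FBL. None passed the edgeR test in any comparison, and neither did FBL or any other gene (0% of all genes passed). FBLL1, a gene of a fibrillarin-like protein, had 230 and 219 counts in the wild-type pair, 190 and 287 in the hemizygous pair and 184 and 239 in the homozygous pair. FBL lies at chr19:39834458-39846414 on the minus strand with no annotated gene overlapping it, and 0.740% of its transcript words occur in another gene. The assignment of reads to FBL was not tested.

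NOMO1 was high in 3 libraries that cross the genotypes. It had 52 and 22 counts in the wild-type pair, 51 and 454 in the hemizygous pair and 235 and 511 in the homozygous pair. Both homozygous libraries, at 5.18 and 12.6 CPM, were above both wild-type libraries, at 1.00 and 0.563 CPM, while the hemizygous libraries split into 1.33 and 8.62 CPM. The log2 fold change was 3.49 ± 0.92 (SE, edgeR) in homozygous cells and 2.66 ± 0.90 in hemizygous cells, the latter 0.75 without hemizygous 2.

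NOMO1 has near copies elsewhere on chromosome 16. NOMO1 lies at chr16:14833681-14896160 on the plus strand, where an unmeasured gene overlaps it on the other strand, and NOMO2 at chr16:18417325-18562211 on the minus strand, and 79.2% of the 50-base words of the NOMO1 transcript occur in NOMO2 and 81.0% in NOMO3, which is not analysed here. NOMO2 had 1374 and 496 counts in the wild-type pair, 745 and 558 in the hemizygous pair and 649 and 545 in the homozygous pair. NOMO1 held 3.65% (95% Wilson interval 2.79 to 4.75%) and 4.25% (2.82 to 6.35%) of the counts of the pair in wild type 1 and 2. It held 6.41% (4.91 to 8.33%) and 44.9% (41.8 to 47.9%) in hemizygous 1 and 2, and 26.6% (23.8 to 29.6%) and 48.4% (45.4 to 51.4%) in homozygous 1 and 2. The share was thus low in 3 libraries and high in 3, with no overlap of the intervals between the classes, and these intervals cover counting error only.

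Summed, the 2 copies gave overlapping levels in the 3 genotypes. NOMO1 and NOMO2 together were at 20.4 ± 10.1 CPM over the wild-type pair, 19.98 ± 1.10 over the hemizygous pair and 22.7 ± 4.61 over the homozygous pair (SD, n = 2), with a highest library 2.07 times the lowest, against 22.4 times for NOMO1 alone. With both counted as 1 gene, a choice made after the values were seen, the log2 fold change was -0.03 in hemizygous and 0.16 in homozygous cells against wild type. Reads of near-identical copies can be listed under either, so the level of NOMO1 alone is uncertain.

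**Figure D5:**
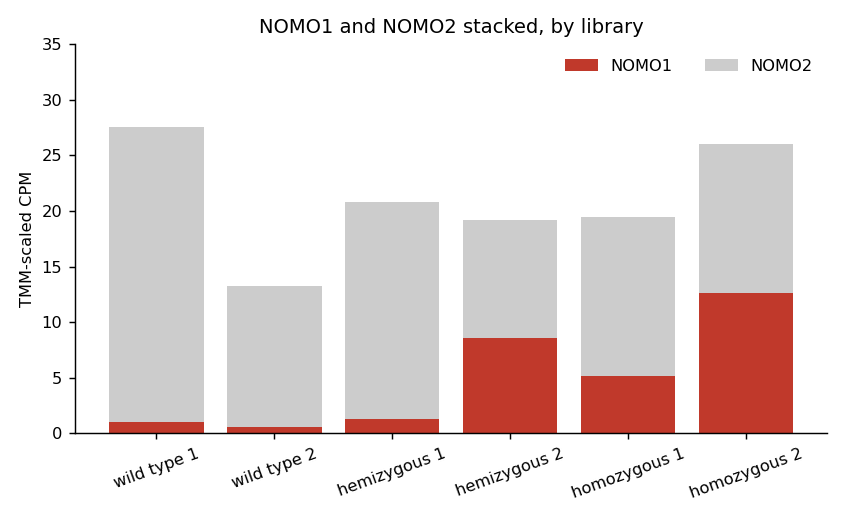
Levels of NOMO1 (red) and NOMO2 (grey) stacked for each library, in TMM-scaled CPM, 1 bar per library. The red part is at most 1.33 CPM in both wild-type libraries and hemizygous 1 and between 5.18 and 12.6 CPM in the other 3, while the whole bar lies between 13.3 and 27.5 CPM.

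Genes that work with the listed ones were examined by edgeR's quasi-likelihood test over all 16199 genes, in 6 lists with 85 measured members. No member of any list passed in any comparison (0% of all genes passed). DESeq2, which called 7, 10 and 10 of 16199 genes in the 3 comparisons, called none of them either. Over the 3 comparisons, with 85 members tested in each, 5 of the member tests had an unadjusted edgeR p under 0.05. MTCH2 gave such a p in all 3 comparisons, and TNFRSF1A and ITPKB in homozygous against wild-type cells. Of all 16199 genes, 141 had such a p in hemizygous against wild type, 435 in homozygous against wild type and 124 in homozygous against hemizygous. Among partners and relatives of MOAP1, 14 of 16 were measured, 4 of them above 0 in hemizygous and 2 in homozygous cells, with medians of -0.05 and -0.26 against -0.00 for all genes in both. MTCH2, a mitochondrial outer membrane protein of cell death signalling, had 1862 and 1204 counts in the wild-type pair, 78 and 138 in the hemizygous pair and 653 and 86 in the homozygous pair. Its hemizygous libraries were both low, as those of MOAP1 were, but only homozygous 2 was as low, at 2.12 CPM against 14.4 in homozygous 1. The log2 fold change of MTCH2 was -3.84 ± 0.80 (SE) in hemizygous cells, with an unadjusted p of 0.00233 and an edgeR adjusted p of 1.00. TNFRSF10A, a death receptor gene, had a log2 fold change of 0.25 in hemizygous and -0.51 in homozygous cells (edgeR adjusted p = 1.00 in both).

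The other lists had medians near those of all genes. Of 17 inositol phosphate enzymes 15 were measured, with medians of -0.04 and -0.08 in hemizygous and homozygous cells. ITPKB, which phosphorylates inositol trisphosphate, was at -0.42 and -0.86, and IPMK, the inositol polyphosphate multikinase, at 0.53 and 0.33. With the replicate number as a block in DESeq2, a fit added after the data were seen, IPMK was called in hemizygous against wild-type cells. It was the only list member called there, where the fit called 23 of all 16199 genes. None was called in homozygous against hemizygous cells, where the fit called 24 of 16199. Calls of list members by that fit in homozygous against wild-type cells are not given here. Of 25 cohesin and meiotic chromosome genes 17 were measured, with medians of 0.05 and -0.04. STAG3, the cohesin subunit that pairs with REC8 in meiosis, had 727 and 803 counts in the wild-type pair, 591 and 1350 in the hemizygous pair and 948 and 1064 in the homozygous pair, so the genotypes overlapped. Those of REC8 did not, but REC8 was chosen on its values, so nothing is drawn from this difference. SYCP2, of the synaptonemal complex, was at 0.61 and 0.33.

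All 16 corepressor genes of KRAB zinc-finger proteins were measured, with medians of 0.02 and -0.02, and their log2 fold changes against wild type lay between -0.20 for UHRF1 in homozygous cells, a reader of methylated DNA, and 0.25 for CHD4 in homozygous cells, a chromatin remodeller. Of 10 translocon partners of NOMO1 8 were measured, with medians of -0.05 and -0.06. The largest differences were those of NOMO2, at -0.39 and -0.50, and SEC61A1, the channel subunit, at -0.06 and -0.31. The 15 snoRNP partners of FBL had medians of 0.01 and 0.08, with RUVBL2, an assembly factor, at -0.06 and 0.13 and NPM1, nucleophosmin, at 0.04 and 0.16.

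Genes with the most similar pattern over the 6 libraries were sought among about 100 genes with a mean of at least 1 CPM and a 5-fold range. Pearson's r of log2 levels is given as a description over 6 libraries, which share their depth and scaling between genes. For MOAP1 the most similar were ZNF492 (r = 0.89), MIR4458HG (0.87), a microRNA host transcript, and MTCH2 (0.77). ZNF492 was also the most similar to REC8 (0.85) and to ZNF849P (0.97), the other genes low in hemizygous cells. MOAP1, ZNF492, REC8 and ZNF849P were all chosen on these same values, so their likeness to each other was built in. MOAP1 and ZNF849P had means below 1 CPM, so neither could be named as similar to another gene. MIR4458HG had 192 and 136 counts in the wild-type pair, 6 and 20 in the hemizygous pair and 21 and 41 in the homozygous pair, low in both edited genotypes.

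EPHA1, an ephrin receptor gene on chromosome 7, was the most similar to ITPK1 (r = 0.93), with 54 and 471 counts in hemizygous 1 and 2 and 33 to 125 elsewhere. EEF1B2 (0.99) and CHORDC1 (0.93) were the most similar to FBL, all 3 being highest in wild type 2. For NOMO1 the most similar was DPPA5 (0.84), a pluripotency-associated gene, with 168 and 314 counts in the wild-type pair, 253 and 805 in the hemizygous pair and 558 and 908 in the homozygous pair. For ZNF560 no gene passed an r of 0.68, the value of MIR4458HG. ZNF560 thus had the least similar partner of the 8 genes.

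Against the strictest form of the pattern, a genotype whose 2 libraries were both at least 5-fold above or below all 4 others, no listed gene passed. In the hemizygous cells 1 gene of 16199 (0.00617%) was on in this sense, ASMTL, and 0 were off, and in the wild-type and homozygous cells 0 were on and 0 off. ASMTL, an acetylserotonin O-methyltransferase-like gene, had 464 and 912 counts in hemizygous and 29 to 52 in the other libraries. MOAP1 came nearest among the listed genes: its lowest other library was 4.16 times its highest hemizygous library, with 0.1 CPM added, and the ratio was 3.02 for ZNF492, 2.88 for ZNF849P and 2.61 for REC8. In a single library 8 genes (0.0494%) were switched 5-fold, ITPK1 and FBL among them. ZNF560 in hemizygous 1 was 4.55-fold below the next library and so outside that class.

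The genes with a wide range were mostly low. The median level of the 117 genes, averaged over libraries, was 3.11 CPM, that of the 8 listed genes 3.29 CPM and that of all genes matched to the annotation 19.8 CPM. Another annotated gene overlapped 62.5% of the listed genes, 62.3% of the matched genes with a 5-fold range and 68.7% of all matched genes. More than 25% of transcript words occurred in another gene for 3 of the 8 listed genes (NOMO1, ZNF492 and ZNF849P), 17.5% of the matched genes with a 5-fold range and 7.65% of all matched genes. REC8 and ZNF560 shared no word with any other gene, on the sense strand of their longest transcripts. The other strand was not examined.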

How the data were processed

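RNA-seq was done on 6 samples of H1 cells, with the genotype taken from the titles. Cutadapt trimmed the reads, HISAT2 was the aligner and hg38 the build, per the submitters' processing notes. For the counting program and annotation, nothing is stated in the labels. The deposited values are raw counts per gene, 38164848 to 52924532 per sample, and every gene in them exceeds 0.5 CPM in at least 3 samples. Libraries were TruSeq, per the labels' protocols. Counts without molecular identifiers give intervals that cover counting error only.

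All 3 comparisons were fitted on all 6 samples with edgeR 4.0.16 in R 4.3.3: TMM, filterByExpr (0 genes removed), quasi-likelihood test, Benjamini-Hochberg adjusted p under 0.05. Fold changes were fitted with no prior count. The labels do not say that replicates are separate cultures, so p-values measure only how far these samples lie apart, and that spread may be technical. Libraries differed pairwise by a chi-square of 11.5 to 97.4 per degree of freedom, so none was a copy. The lowest value was that of hemizygous 2 and homozygous 2. The 2 libraries of a genotype differed by 60.3 for wild type, 90.3 for hemizygous and 41.7 for homozygous. By this measure every library was closer to a library of another genotype than to its own replicate. On simulated data for hemizygous against wild-type cells (16199 genes), the test recovered 95.0% of genes changed 4-fold and 100% of those changed 16-fold. In the measured data the same test called 0 of 16199 genes in that comparison. ASMTL, at a log2 fold change of 4.03, was not called (edgeR adjusted p = 0.0694). Whether the simulated spread matched that of these libraries was not tested. The recovery therefore does not show that large differences were absent.

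The 8 genes and all lists were chosen with earlier results of these data known. Named besides them were near copies, overlapping genes, neighbours (3 each side) with an absolute log2 fold change of at least 1, the 2 partners with the largest change per list, the 3 most similar genes, and genes switched by genotype. GOLGA5, DDX24, ZNF43, ZNF730, ZNF266, ZNF426, NOP56 and NOP58 were named after their values were seen. Genes were matched to GENCODE release 29 (15913 of 16199), shared words of 50 bases were counted in its transcripts, and promoters came from RefSeq. The words were those of each gene's longest transcript, sought on the sense strand only.

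Alternatives were DESeq2 1.42.0 or its size factors, other filters, folds, pseudocounts and prior counts, the replicate block and leaving out each sample. Python 3.11.15, pandas 2.3.3, scipy 1.17.1 and matplotlib 3.10.9 were used.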

Additional observations from a re-analysis of the deposited data

How the results depend on the processing

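Of 24 log2 fold changes, 8 genes in 3 comparisons, 6 changed sign when 1 library was left out: ITPK1 in all 3 comparisons, ZNF560 in both comparisons with hemizygous cells, and ZNF849P in homozygous against wild-type cells. None changed sign with DESeq2 size factors, prior counts of 0.1 or 2, or the replicate block. No measured gene overlaps a listed gene, so sums over overlapping genes were not run.

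edgeR called 0 genes in each comparison, with 141 (hemizygous against wild type), 435 (homozygous against it) and 124 (between the edited genotypes) at an unadjusted p under 0.05. The labels share replicate numbers but no stated pairing; deviations of same-numbered samples correlated at 0.75 (wild type and hemizygous), 0.36 (wild type and homozygous) and 0.48 (hemizygous and homozygous). With the replicate number as a block edgeR called 1, 0 and 1 genes, ASMTL each time. DESeq2 called 7, 10 and 10 genes, among them MOAP1 and ZNF492 in the first comparison, FBL and NOMO1 in the second and MOAP1, REC8 and ZNF492 in the third, and with the block, a fit added after the data were seen, 23, 121 and 24. Leaving out 1 library gave 0 to 2, 0 to 1 and 0 to 3 edgeR calls. ITPK1 was called without hemizygous 1, and ZNF560 without hemizygous 1 or without hemizygous 2. These fits leave 1 hemizygous sample, assumed to vary like the other groups. The listed genes were chosen on these values, so none of their calls is support for a difference. The cause was not tested.

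The 117 genes with a 5-fold range became 527 at 3-fold, 37 at 10-fold and 66 with 0.5 CPM added, and 88 to 109 without 1 library, the lowest without wild type 1. Genes switched in a single library became 27 at 3-fold and 4 at 10-fold, from 8. Genes switched by genotype became 4 at 3-fold and 2 with 0.02 CPM added, from 1; MOAP1 entered in both, and ZNF492 at 3-fold. Fewer or more genes pass a stricter or looser limit by construction. Levels of 4 to 6 counts limit how far below the other libraries the hemizygous MOAP1, REC8 and ZNF849P can be placed.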
